A study of Mus musculus with 2 samples.

Results

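The lysyl oxidase family of the mouse consists of 5 genes, Lox, Loxl1, Loxl2, Loxl3 and Loxl4, taken here by name from tables of 20211 gene symbols. All 5 had a value above 0 in both libraries and all 5 had a mean of at least 1 RPKM, as did 10068 genes in all. RPKM is the number of reads on a gene scaled to the length of its transcript and to all mapped reads of the library, so that levels can be compared between genes. The study sequenced RNA of primary perivascular cells (PCs) grown from the aorta of C57BL/6 mice, to ask how the tetraspanin KAI1 (CD82) in these cells bears on angiogenesis. There was 1 library of wild-type (WT) PCs and 1 library of Kai1 KO PCs (Kai1−/−), both from serum-fed cultures. The labels give neither the age nor the sex of the mice, nor how many animals were pooled, nor how the Kai1 KO allele was made.

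Lysyl oxidases are secreted copper enzymes that oxidise the side chains of lysines in collagens and elastin. The aldehydes formed in this way then react with each other into covalent cross-links, which give the wall of an artery its strength and recoil. Lox and Loxl1 encode enzymes that are made with a propeptide, which proteases of the BMP1 group remove. The proteins of Loxl2, Loxl3 and Loxl4 carry scavenger receptor cysteine-rich domains in its place. All members share the catalytic part at the carboxyl end, in which a copper ion is held by histidines.

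The coding sequence of that copper site is shown because it is what makes these genes one family and because like sequences can share reads. The stretches below are 57 bases long, read 5′ to 3′ on the coding strand from the GENCODE M1 transcripts of the mouse genome build NCBI37 (mm9), and capitals mark 4 histidine codons that stand close together at the copper site. Each of the stretches printed also holds 1 histidine codon further to the 5′ side, which is left in lower case.
Loxl1: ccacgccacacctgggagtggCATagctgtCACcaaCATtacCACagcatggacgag
Loxl2: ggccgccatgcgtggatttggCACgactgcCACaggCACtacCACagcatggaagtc
Loxl3: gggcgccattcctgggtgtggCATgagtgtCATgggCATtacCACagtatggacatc
Loxl4: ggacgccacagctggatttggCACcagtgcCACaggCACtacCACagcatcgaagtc
In each gene the stretch is split by an intron. In Loxl1 it lies on the minus strand at chr9:58142166-58142200 in exon 3 and chr9:58141515-58141536 in exon 4. In Loxl2 it lies on the plus strand at chr14:70082111-70082145 in exon 10 and chr14:70088835-70088856 in exon 11. In Loxl3 it lies on the plus strand at chr6:82999977-83000011 in exon 10 and chr6:83000110-83000131 in exon 11. In Loxl4 it lies on the minus strand at chr19:42674367-42674401 in exon 11 and chr19:42673285-42673306 in exon 12. Loxl2 and Loxl4 had 49 of the 57 bases in common, Loxl2 and Loxl3 had 43, and Loxl3 and Loxl4 had 41. Loxl1 shared only 37 to 40 of the bases with these genes, and 51 with Lox, whose own stretch is not printed. Over whole transcripts, 1 per gene, the longest run of identical bases between any pair of members was 32, between Lox and Loxl1. The length of the reads is not given in the sources used here.

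Kai1 is the older name of Cd82, the gene targeted in the Kai1−/− mice. Its level was 12.8 RPKM in WT PCs and 2.62 RPKM in Kai1−/− PCs, or 20.5% of WT. The steps between low RPKM values fitted a total near 29500000 reads for WT and near 26600000 for Kai1−/−. Summed over all symbols, the RPKM values came to 884463 in WT PCs and 1238193 in Kai1−/− PCs. The Y-linked genes Ddx3y, Eif2s3y, Kdm5d and Uty had 6.56, 3.17, 0.941 and 0.479 RPKM in WT PCs. All of them were listed at 0 in Kai1−/− PCs, so that a difference of sex between the libraries cannot be told apart from one of genotype. The mural markers Acta2, the actin of smooth muscle, and Tagln stood at 3823.2 and 632.5 RPKM in the WT library and at 2579.8 and 306.7 RPKM in the Kai1−/− one, whereas the pericyte marker Rgs5 was near 0 in both, at 0.063 and 0.233 RPKM. Of 8 endothelial markers, none reached a mean of 1 RPKM. With 1 library per genotype no comparison has a replicate check, no p-value is given, and the 95% intervals below come from estimated reads and cover counting error only. In RNA of a whole culture, fewer cells of a type and less RNA per cell cannot be told apart.

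All 5 lysyl oxidase genes were lower in Kai1−/− PCs than in WT PCs, with log2 ratios from -1.81 to -0.38. The ratios were taken after adding 0.1 RPKM to each value, and their median over all 10068 genes was 0.08. The largest difference was that of Loxl2, and the smallest that of Loxl4. Of the 5 genes, 3 were more than 2-fold lower, namely Loxl1, Loxl2 and Loxl3, and 0 were more than 2-fold higher. The share of all genes kept that lay past the 2-fold line was 7.81% on the lower side and 7.98% on the higher side. Among the 6518 genes with a mean of at least 5 RPKM, which include the whole family, these shares were 5.37% and 7.84%. Below 0 lay 44.9% of the ratios of all genes kept.

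**Figure D1:**
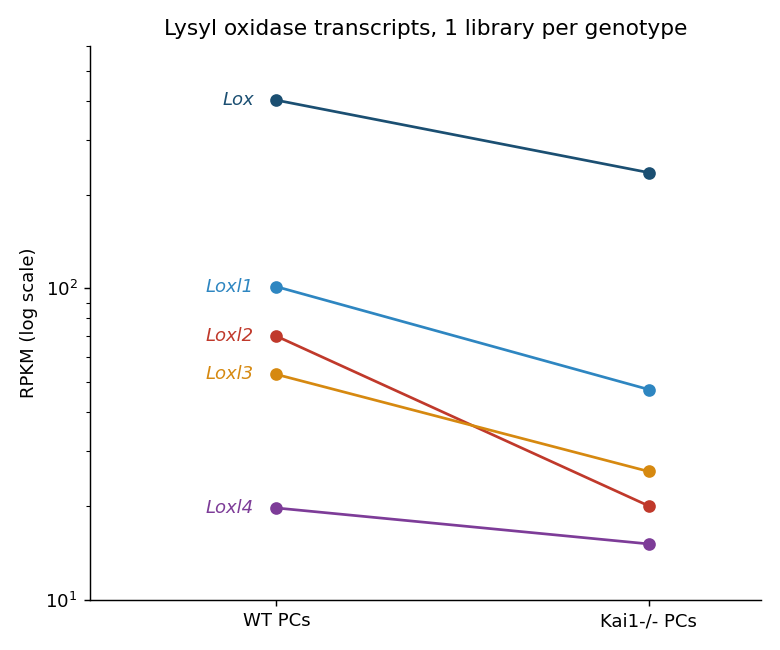
Level of each lysyl oxidase gene (y axis, RPKM on a log scale) in the WT and the Kai1−/− library, with 1 point per library and a line joining the points of a gene. All 5 lines slope down, and the line of Loxl2 crosses that of Loxl3, from 70.2 to 20.0 RPKM against 52.9 to 25.8 RPKM. The values of Loxl3 may hold reads of the overlapping gene Htra2.

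Lox encodes the founding enzyme of the family, which cross-links both collagen and elastin and without which the aorta of newborn mice ruptures. The gene lies on the minus strand of chromosome 18, from 52675723 to 52689521. It had 401.8 RPKM in WT PCs, with a counting interval from 398.3 to 405.3, and 235.2 RPKM in Kai1−/− PCs, from 232.4 to 238.0. Lox was the most abundant member in both libraries, and the 289th and 463rd gene in order of level among all genes kept. Its level in Kai1−/− PCs was 58.5% of that in WT PCs, so that its log2 ratio of -0.77 ± 0.02 did not reach a 2-fold difference. Of all genes kept, 11.5% had a lower ratio.

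Loxl1 encodes the enzyme that is best known for the upkeep of elastic fibres in adult tissue. The gene lies on the minus strand of chromosome 9, from 58135530 to 58161019. It had 101.2 RPKM in WT PCs (99.1 to 103.2) and 47.3 RPKM in Kai1−/− PCs (45.8 to 48.8), and was the next most abundant member in either library. The Kai1−/− level was 46.7% of the WT level, a log2 ratio of -1.10 ± 0.05. A lower ratio was found in 6.8% of all genes kept.

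Loxl2 encodes an enzyme that acts on collagen IV of basement membranes and on fibrillar collagens. The gene lies on the plus strand of chromosome 14, from 70008978 to 70095640, within the span of Gm16867 on the opposite strand, with which it shares 0 exonic bases. Its level was 70.2 RPKM in WT PCs (68.9 to 71.6) and 20.0 RPKM in Kai1−/− PCs (19.3 to 20.8), so that 28.5% of the WT level was left. The log2 ratio was -1.81 ± 0.06, and only 2.8% of all genes kept had a lower one. In order of level Loxl2 went from the 1168th gene in WT PCs to the 3115th in Kai1−/− PCs.

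Loxl3 encodes a member that is needed for the collagen of the palate and spine in mouse embryos. The gene lies on the plus strand of chromosome 6, from 82984167 to 83002556. It had 52.9 RPKM in WT PCs (51.5 to 54.2) and 25.8 RPKM in Kai1−/− PCs (24.8 to 26.8), or 48.8% of WT. The log2 ratio of -1.03 ± 0.07 was close to the 2-fold line, which lies within its counting interval. The end of Loxl3 overlaps that of Htra2, a gene for a mitochondrial protease on the opposite strand, over 535 exonic bases between 83001260 and 83002536. Htra2 was more abundant than Loxl3 in both libraries, with 155.9 RPKM in WT and 191.8 in Kai1−/−. The strand of the counting is not given in the sources used here, so reads of Htra2 within the value of Loxl3 cannot be told apart from its own. Htra2 had about 10640 estimated reads in WT PCs and 11810 in Kai1−/− PCs, over a transcript of 2512 bases. Loxl3 had about 6080 and 2680. How many reads of Htra2 fall on the shared bases was not measured.

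Loxl4 encodes a further matrix enzyme of the scavenger receptor type. The gene lies on the minus strand of chromosome 19, from 42668472 to 42687303. It was the least abundant member in both libraries, with 19.7 RPKM in WT PCs (18.8 to 20.5) and 15.1 RPKM in Kai1−/− PCs (14.3 to 15.9). The Kai1−/− level was 76.6% of the WT level, a log2 ratio of -0.38 ± 0.10. A lower ratio was found in 23.1% of all genes kept, so that Loxl4 stood nearest to the bulk of genes.

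**Figure D2:**
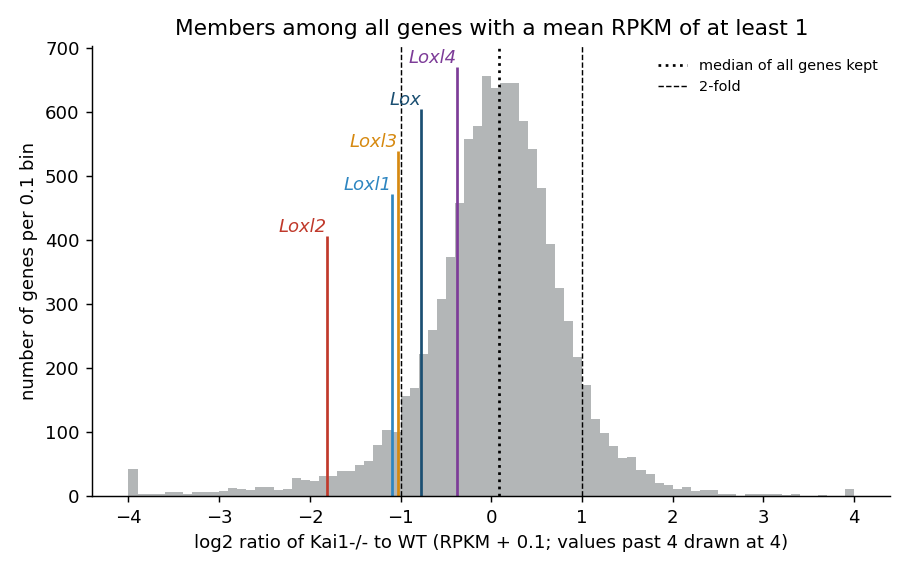
Number of genes (y axis) by log2 ratio of Kai1−/− to WT (x axis, bins of 0.1) over the 10068 genes with a mean of at least 1 RPKM, with a coloured line for each lysyl oxidase gene, whose height has no meaning. All 5 lines lie to the left of the dotted median at 0.08, and those of Loxl1, Loxl2 and Loxl3 lie past the dashed 2-fold line.

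The members differed among themselves by more than counting error in 9 of 10 pairs. The exception was Loxl1 and Loxl3, whose log2 ratios differed by -0.06 ± 0.08. The ratio of Lox exceeded that of Loxl2 by 1.03 ± 0.07, and the ratio of Loxl2 was below that of Loxl4, with a difference of -1.42 ± 0.12. The order of levels in WT PCs was Lox, Loxl1, Loxl2, Loxl3 and Loxl4. In Kai1−/− PCs Loxl3 stood above Loxl2, and the counting intervals of neighbours in the order did not overlap in either library. These intervals do not cover reads of Htra2 that may lie within the value of Loxl3, so its place above Loxl2 is uncertain. How far these levels vary between cultures was not measured.

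Summed over the family, the level was 645.7 RPKM in WT PCs and 343.4 RPKM in Kai1−/− PCs, or 53.2% of WT. Lox and Loxl1, the members with a propeptide, summed to 502.9 and 282.5 RPKM, a log2 ratio of -0.83. Loxl2, Loxl3 and Loxl4 summed to 142.8 and 60.9 RPKM, a log2 ratio of -1.23. Lox alone made up 62.2% of the family sum in WT PCs and 68.5% in Kai1−/− PCs. The share of Loxl2 was 10.9% in WT PCs and 5.8% in Kai1−/− PCs, while that of Loxl4 was 3.0% and 4.4%. The level of Lox divided by that of Loxl2 was thus 5.72 in WT PCs and 11.7 in Kai1−/− PCs.

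**Figure D3:**
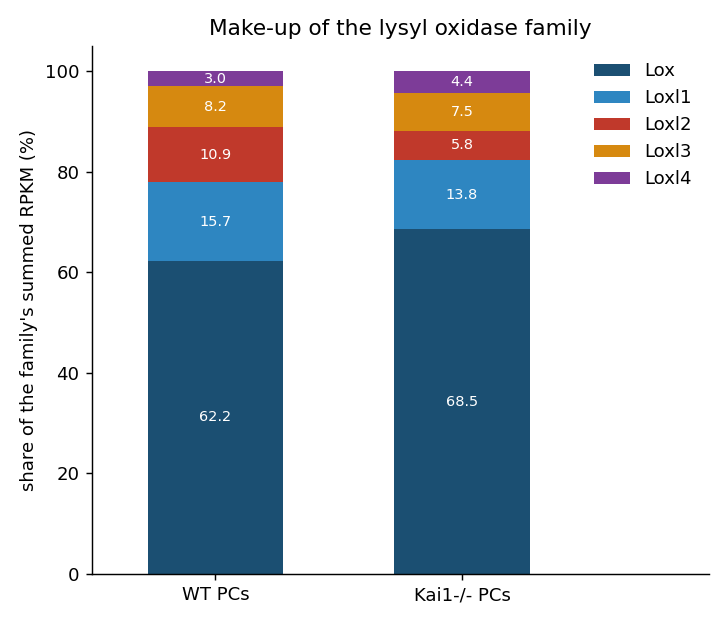
Share of the summed RPKM of the family (y axis, %) held by each member in the WT and the Kai1−/− library, with 1 stacked bar per library. Lox holds 62.2% and 68.5%, and Loxl2 has 10.9% in WT PCs and 5.8% in Kai1−/− PCs.

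The substrates of these enzymes were looked up next. For the lists that follow, the shares of all genes kept past the 2-fold line were 7.81% on the lower side and 7.98% on the higher side. Of 11 genes for fibrillar collagen chains, 8 had a mean of at least 1 RPKM, with 3 more than 2-fold lower in Kai1−/− PCs and 2 more than 2-fold higher. Their median log2 ratio was -0.85, against -1.03 for the 5 lysyl oxidases and 0.08 for all genes kept. Col1a1 and Col1a2, the chains of collagen I, had 924.5 and 823.7 RPKM in WT and 533.6 and 376.8 RPKM in Kai1−/− cells. Col5a1, which starts collagen fibrils, went from 122.8 RPKM in WT to 42.8 in Kai1−/−, and the minor chain Col5a3 from 3.83 to 1.84. The cartilage chains Col2a1 and Col11a1 were higher in Kai1−/− PCs, at 9.74 RPKM in WT against 31.9 and at 3.78 against 8.85. Of 6 collagen IV genes, 4 were kept, with a median of -0.06, 0 more than 2-fold lower and 1 higher. The main collagen IV chains Col4a1 and Col4a2 had 151.0 and 172.5 RPKM in WT and 125.2 and 118.3 RPKM in Kai1−/− cells, and Col4a6 had 5.55 and 16.4.

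Of 8 genes for elastin and microfibrils, 6 were kept, with 3 more than 2-fold lower, 1 more than 2-fold higher and a median log2 ratio of -1.16. At a mean of at least 5 RPKM, where Eln and Mfap2 drop out, this median was -0.10. Eln, the gene of elastin itself, had 6.81 RPKM in WT PCs and 0.867 in Kai1−/− PCs. The microfibril genes Mfap2 and Mfap5 went from 5.34 to 0.132 RPKM and from 194.0 to 43.6 RPKM, whereas Emilin1, an elastic fibre glycoprotein, had 40.2 and 39.1 RPKM. Ltbp4, which binds latent TGF-beta and helps to lay down elastin, was higher in Kai1−/− PCs, at 16.6 RPKM against 3.48. The quotients of enzyme to substrate that follow were chosen after the values were seen. The level of Lox divided by that of Col1a1 was 0.435 in WT PCs and 0.441 in Kai1−/− PCs, and divided by that of Col1a2, the other chain of collagen I, it was 0.488 and 0.624. Loxl1 divided by Eln was 14.9 and 54.5, the latter over an Eln level of only 0.867 RPKM. Loxl2 divided by Col4a1 was 0.465 and 0.160.

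Genes for the processing of propeptides and for scaffolds that bring lysyl oxidases to their substrates were also described. The processing genes include enhancers of procollagen cleavage. Of 8 proteases and enhancers for propeptides, 6 were kept, with 1 more than 2-fold lower, 0 higher and a median log2 ratio of -0.69. Bmp1, which activates the Lox proenzyme, had 59.9 RPKM in WT PCs and 33.3 in Kai1−/− PCs, and Lox divided by Bmp1 was 6.71 and 7.05. Pcolce, an enhancer of procollagen cleavage, had 1018.2 and 647.7 RPKM, and its relative Pcolce2 had 19.2 and 4.68. All 7 scaffold genes were kept, with a median of -0.75, and 3 of them lay past 2-fold on the lower side and 0 on the higher side. Fn1, the gene of fibronectin, had 510.3 RPKM in WT PCs and 302.9 in Kai1−/− PCs. The lower ones were Fmod, for the collagen-binding proteoglycan fibromodulin (32.8 and 4.72 RPKM), Thbs1, for thrombospondin 1 (818.0 and 185.4), and Tnxb, for tenascin X (1.67 and 0.655).

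The lists of genes for earlier steps and for the cofactor had median ratios smaller in size than that of the lysyl oxidases. Of 7 genes for lysyl hydroxylases, their partners and the enzymes that add sugars to hydroxylysine, 6 were kept and 0 passed 2-fold in either direction, with a median log2 ratio of -0.20. The ratios of these 6 ran from -0.45 to 0.67. The collagen chaperones of this list, Serpinh1 and Fkbp10, had 462.4 and 166.2 RPKM in WT and 435.4 and 144.7 RPKM in Kai1−/− cells. Of 9 genes for copper uptake and delivery, 7 were kept and 0 passed 2-fold, with a median of -0.06 and ratios from -0.35 to 0.29. The copper chaperone Atox1 had 1736.0 RPKM in WT PCs and 1663.1 in Kai1−/− PCs, and the metallothionein Mt1 had 3680.4 and 2886.8. Copper amine oxidases of the other type were scarce, and only Aoc2 was kept, at 1.68 and 0.659 RPKM.

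**Figure D4:**
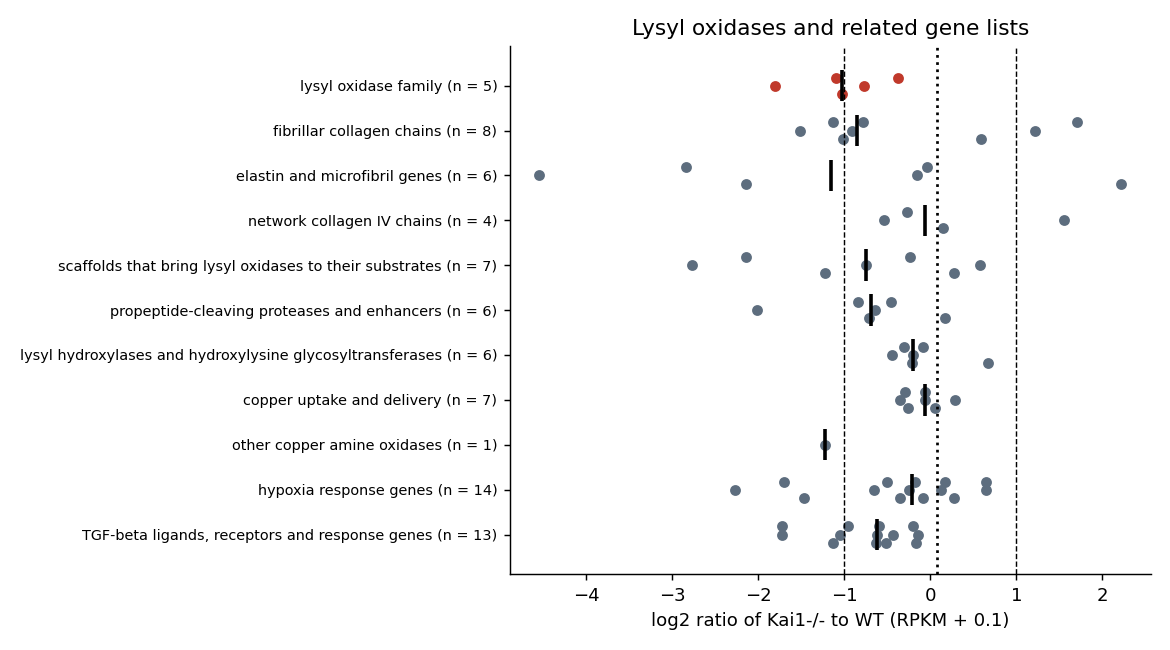
Log2 ratio of Kai1−/− to WT (x axis) for each gene with a mean of at least 1 RPKM (points) in the lysyl oxidase family, in red, and in 10 related lists, with a thick bar at the median of each list. The dotted line marks the median of all genes at 0.08 and the dashed lines a 2-fold difference. The medians of the lists of hydroxylases (-0.20) and copper genes (-0.06) lie close to the dotted line, while those of the lysyl oxidases (-1.03) and of the elastin and microfibril genes (-1.16, but -0.10 at a mean of at least 5 RPKM) lie past the 2-fold line.

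TGF-beta signalling and low oxygen are known inducers of lysyl oxidase genes. Of 14 genes for TGF-beta ligands, receptors, Smads and response genes, 13 were kept and all 13 had a log2 ratio below 0, with a median of -0.62. Of these, 4 were more than 2-fold lower and 0 higher. Tgfb2, a ligand, had 4.65 RPKM in WT PCs and 1.33 in Kai1−/− PCs, and Smad7, a feedback inhibitor of the pathway, had 10.1 and 2.99. Tgfbi, a matrix protein induced by TGF-beta, had 4.50 and 1.99 RPKM, and the co-receptor Tgfbr3 had 4.92 and 2.32. The response gene Ctgf had 378.7 RPKM in WT and 249.0 RPKM in Kai1−/− cells. Of 15 hypoxia response genes, 14 were kept, with 3 more than 2-fold lower, 0 higher and a median of -0.21. The lower ones were Epas1, for the factor HIF-2 alpha (2.48 and 0.436 RPKM), the vasodilator gene Adm (28.8 and 8.82) and Ndrg1 (3.87 and 1.34). The glycolytic genes Pgk1 and Ldha were higher, with 408.1 and 374.3 RPKM in WT and 642.3 and 588.0 RPKM in Kai1−/− cells. The part of TGF-beta signalling or of low oxygen in the lower lysyl oxidase levels was not tested.

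Markers of the cells that the culture could hold did not all move with the family. The mural ones that were kept all fell, but the fibroblast list and the cartilage and bone list went both ways. Of 10 mural markers, 7 were kept and all 7 had ratios below 0, with 4 more than 2-fold lower and a summed level of 4645.6 RPKM in WT PCs and 2977.2 in Kai1−/− PCs. Mcam went from 4.90 to 0.264 RPKM, the smooth muscle myosin gene Myh11 from 2.96 to 0.346, and Cnn1, for calponin, from 119.6 to 49.2. Of 9 fibroblast markers, 8 were kept, with 4 more than 2-fold lower and 1 higher, and summed levels of 23242.5 and 20103.9 RPKM, most of it S100a4. Pi16 went from 1.98 to 0.384 RPKM, Dpt from 3.06 to 0.783, Ly6a from 1353.6 to 569.1 and Pdgfra from 2.01 to 0.854, while Cd34 was higher, at 7.76 against 1.44. The 8 macrophage markers summed to 16.5 RPKM in WT PCs and 4.23 in Kai1−/− PCs. Highest were Csf1r with 11.7 and 2.66 and Lyz2 with 3.44 and 1.09, while Ptprc of the same list was near 0 in both. The 8 endothelial markers summed to 0.994 RPKM in WT PCs and were listed at 0 in Kai1−/− PCs, and the 8 epithelial markers stayed near 0, with 2 of them listed at 0 in WT PCs and 5 in Kai1−/− PCs. Of 8 markers of cartilage and bone, 7 were measured and 3 kept, with sums of 20.9 and 42.5 RPKM. In this list Col2a1 was more than 2-fold higher, Bglap, for osteocalcin, was lower at 0.203 against 2.12 RPKM, and Sox9, a cartilage transcription factor, had 8.36 and 9.80. The part of these markers in the lower lysyl oxidase levels was not tested.

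Over only 2 libraries, likeness between genes means no more than a similar level in each. By the distance between log2 levels, the genes nearest to Lox were Cd81, Rcn3 and Cryab. Cd81, a tetraspanin like Cd82, lay at a distance of 0.046 on the log2 scale, with 389.1 RPKM in WT and 234.9 in Kai1−/−. Nearest to Loxl1 were Ypel3, Mxra8 and Lrrc32, and nearest to Loxl3 were Nfe2l1, Sat1 and Ext1. The genes nearest to Loxl2 were farther away, with Tmem37 at a distance of 0.187, followed by Grb10 and Sncg. Nearest to Loxl4 were Glul, Pecr and Dnajc5.

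The size of the differences depended on how the libraries were scaled. Relative to the median of all genes kept, the log2 ratios were -0.85 for Lox, -1.18 for Loxl1, -1.89 for Loxl2, -1.11 for Loxl3 and -0.46 for Loxl4. Scaling both libraries to Gapdh, a glycolytic gene often used as a reference, moved the median of all genes to -0.41 and the ratio of Lox to -1.27, past the 2-fold line. Gapdh itself had 4238.3 RPKM in WT PCs and 5997.0 in Kai1−/− PCs. Each of the 5 ratios was below 0 in every setting tried, and Loxl2 was the lowest and Loxl4 the highest in each. The scalings tried moved all 5 ratios down by nearly the same amount. By construction a scaling shifts the members nearly alike, so it could not alter which member was lowest or highest. That the shifts were downward came from the values of these libraries, and such shifts could not bring a ratio above 0.

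**Figure D5:**
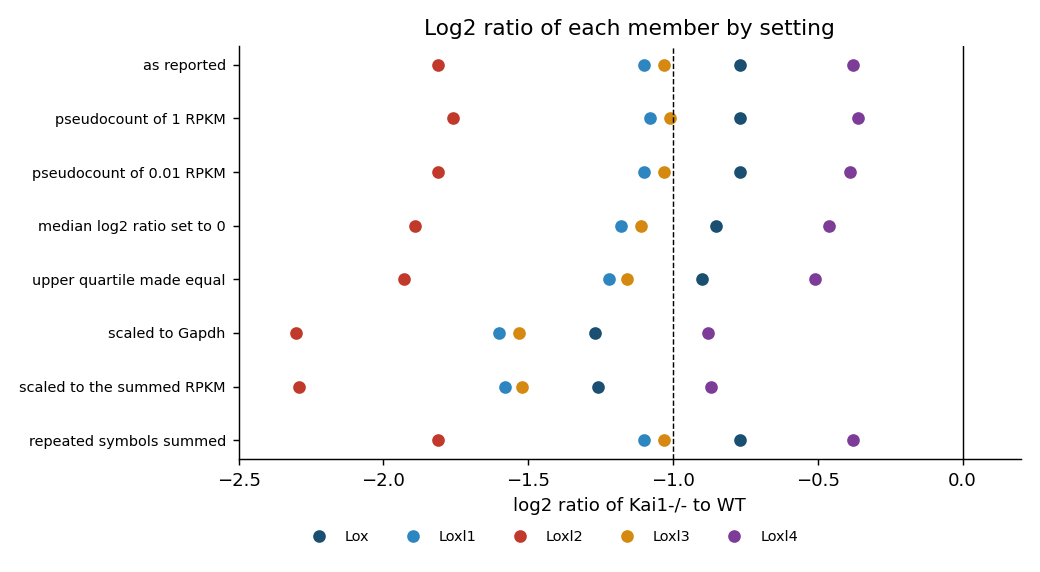
Log2 ratio of Kai1−/− to WT (x axis) for each lysyl oxidase gene, in colour, under the reported setting and 7 alternatives (rows), with the dashed line at 2-fold lower and the solid line at 0. All points lie to the left of 0, and Lox passes the 2-fold line when the libraries are scaled to Gapdh (-1.27) or to the summed RPKM (-1.26).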

How the data were processed

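RNA of 1 WT and 1 Kai1−/− library of aortic PCs was compared. The authors aligned the reads to mm9 (NCBI37) with TopHat2 2.0.9 and Bowtie, and deposited RPKM values of RefSeq genes for each library. They tested differences with Cuffdiff, which is not repeated here.

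Of 20462 rows, 38 named no gene and were dropped, and values of 153 symbols on several rows were averaged. Each lysyl oxidase gene stood on 1 row. Log2 ratios used a pseudocount of 0.1 RPKM, which understates the change of low genes, and a mean of at least 1 RPKM was required. Members and lists were chosen with earlier results of these data known. Genes named from a list were those past 2-fold (at most 4 per direction) and the 2 with the highest mean, and the 3 genes nearest to each member. The Y-linked genes, Rgs5, Ptprc and Tgfbr1 were named outside this rule, after their values were seen, and Gapdh as a reference. A gene that this rule names is not reported here. Total reads were estimated as the number that put low values of single-transcript genes over 800 bases, less a fragment of 200 bases, on whole reads; 79.2% (WT) and 77.3% (Kai1−/−) lay within 0.15 of one. Reads per gene assumed the longest GENCODE M1 transcript, and Poisson 95% intervals followed from them. The steps were tested on simulated data made with the same transcript lengths and fragment that the estimate assumes. That test could therefore not check these assumptions for the real values. Python 3.11.15, numpy 2.4.6, scipy 1.17.1, pandas 2.3.3, biopython 1.88 and matplotlib 3.10.9 were used.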

Additional observations from a re-analysis of the deposited data

How the results depend on the processing

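Of the alternatives tried, other pseudocounts (1 and 0.01 RPKM) and the sum of repeated symbols moved no ratio of a member by more than its counting interval, while other scalings moved all members nearly alike by construction. With the median of all genes set to 0, the log2 ratios were -0.85 for Lox, -1.18 for Loxl1, -1.89 for Loxl2, -1.11 for Loxl3 and -0.99 for the family sum. With equal upper quartiles they were -0.90, -1.22, -1.93, -1.16, -0.51 for Loxl4 and -1.04 for the sum. Scaled to Gapdh they were -1.27, -1.60, -2.30, -1.53, -0.88 and -1.41, and scaled to the summed RPKM -1.26, -1.58, -2.29, -1.52, -0.87 and -1.40. The number of members more than 2-fold lower was 3, or 4 under the latter 2 scalings, and 0 were higher in any setting. Over all genes, 1856 were lower and 278 higher when scaled to Gapdh, 1822 and 287 when scaled to the summed RPKM, 1878 and 1205 without a filter on mean RPKM, and 350 and 511 with a mean of at least 5, against 786 and 803. With the median set to 0 the counts were 912 and 656, and with equal upper quartiles 977 and 594. Of 89 recomputed medians of the 10 related lists, 0 changed sign and 11 crossed the 2-fold line. These were the elastin and microfibril genes at a mean of at least 5 RPKM (-0.10 against -1.16), the other copper amine oxidases with a pseudocount of 1 RPKM (-0.69 against -1.23) and without a filter (-0.33), and, scaled to Gapdh or to the summed RPKM, the fibrillar collagens, scaffolds, proteases and TGF-beta genes. For copper amine oxidases of the other type no median could be had at a mean of at least 5 RPKM, where no gene was left. No paired analysis was possible because there was only 1 library of WT and 1 of Kai1−/− PCs, and for the same reason no replicate could be left out. Reads set little limit here, since the least abundant member still rested on about 1420 reads in Kai1−/− PCs.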
